A study of Mus musculus with 7 samples.

Results

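Motile cilium axoneme genes were followed in RNA from the right lung lobes of bleomycin-injured mice with or without hyperbaric oxygen (HBO). The members were chosen by name, with earlier results of these data known. They were all protein-coding genes of the GENCODE vM21 mouse annotation whose symbol was Dnah, Dnaaf, Cfap, Rsph or Tekt followed by a number. A letter was allowed at the end of Dnah and Rsph symbols, and Foxj1, Mcidas and Ccno were added. The rule found 64 of the 55401 genes in the count table, namely 29 Cfap, 15 Dnah, 8 Rsph, 5 Tekt and 4 Dnaaf genes and the 3 genes given by name. All mice were male C57BL/6 animals, 6 to 8 weeks old and 20 to 25 g, and all had received bleomycin, a DNA-damaging drug used to produce lung fibrosis, once into the trachea. The 3 mice of the BLM+HBO group breathed pure oxygen at 2.5 ATA (atmospheres absolute) for 90 min a day on 14 days in a row, starting at day 7, and the 4 mice of the BLM group did not. Per the labels the BLM mice sat in the chamber unpressurized, whereas the methods of the study describe them as left without treatment. Lungs of both groups were taken at day 21. Mice that lost little weight after bleomycin had been excluded by the authors as failed models, and no uninjured lung was analysed here, so levels are those of injured lung in both groups and cannot be read against a normal lung.

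Motile cilia are the beating hairs of airway lining cells, and in the lung they move mucus along the conducting airways. Their shaft, the axoneme, is a ring of paired microtubules around a central pair: outer and inner dynein arms (Dnah heavy chains) drive the bending, radial spokes (Rsph) and the central pair with its tethers (many Cfap genes) regulate it, and tektins and other inner proteins line the microtubules. Foxj1, a forkhead transcription factor, and the factors of the RFX family switch these genes on, while Mcidas and Ccno act earlier, when a cell makes many centrioles, and the Dnaaf proteins assemble dynein arms in the cytoplasm before they are shipped into the cilium.

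Because RFX factors bind paired GTTGCC-like arms, promoter sequence of the members was searched for such strings. RefSeq promoters (build GRCm38.p6, 250 bases before to 50 after the start, 300 bases) were at hand for 51 of the 64 members and for 27025 genes in all. GTNNCC, 2 bases of any kind and GGNAAC, the arms of an RFX-type palindrome, lay in 5 of the 51 members (9.80%) and in 1.49% of all genes. These members were Cfap206, Dnaaf5, Ccno, Cfap298 and Tekt4. A single arm, GTTGCC, lay in 21 of the 51 (41.2%) and in 14.1% of all genes. The forkhead string GTAAACA lay in 4 (7.84%) against 4.05%. The other 5 of the 8 strings searched, all on both strands and most overlapping those above, were GTTNCC (72.5% of members, 48.8% of genes), GTNNCC with GNNAC after 2 bases (17.6%, 4.25%), GTTNCC with GGNAAC after 2 bases (1.96%, 0.529%), GTTGCC followed directly by ATGG (1.96%, 0.633%) and the forkhead string TGTTTGT (1.96%, 7.60%). A match describes letters in the window and not binding. The window is that of the RefSeq start, and parts of it can lie inside the gene as drawn in vM21. The palindrome stretch of Tekt4 lies in a vM21 intron, downstream of the start of a longer transcript. That of Cfap298 lies in a vM21 exon for 30 of its 30 bases, and that of Dnaaf5 for 12 of 26. Stretches from 4 of the 5 members with the palindrome are shown to let the arms be compared, with the matched bases in capitals. Tekt4 carries the string on the strand printed, whereas Cfap206, Dnaaf5 and Ccno carry it on the opposite strand, so that their capitals read GTTNCC, 2 bases and GGNNAC. The other 2, from genes called higher in BLM+HBO below, show the single arm on the opposite strand, which is GGCAAC as printed. For Cfap161 only the match at -66 from the start is in capitals. A further match, at -59, stands in the same stretch in small letters, and another lies at -39.
Cfap206, chr4:34730208-34730237, minus strand: cgcgttccGTTTCCACGGTTACgcgactgc
Dnaaf5, chr5:139150209-139150234, plus strand: tagcgccgGTTCCCTTGGAGACaggc
Ccno, chr13:112987575-112987604, plus strand: gggctgcgGTTGCCACGGTGACgacagacg
Tekt4, chr17:25471422-25471451, plus strand: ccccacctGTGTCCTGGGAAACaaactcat
Cfap161, chr7:83794888-83794917, minus strand: tcttgaccaactGGCAACtggcaactgcct
Cfap46, chr7:139683816-139683836, minus strand: gccccgtctctaGGCAACcgc

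Reads assigned to genes totalled 18157161 to 26365969 per mouse, BLM+HBO 3 being the deepest, and 17465 genes had enough reads to be tested. Lung identity was clear in each mouse: the summed level of 5 alveolar type 2 genes was 8087 CPM or higher, where CPM is the count scaled to the effective size of the library. The common biological coefficient of variation was 0.222. edgeR's quasi-likelihood test, the main test here, called 0 genes of the whole table (0.00%) at an adjusted P below 0.05 (lowest 0.423, 1861 genes at an unadjusted P below 0.05). DESeq2, the tool of the study, called 128 genes (0.733%) and limma-trend 0 (0.00%). A gene is called here by 2 limits together, taken from the methods of the study, a fold change above 1.5 and an unadjusted P under 0.05. By these limits 3.40% of all tested genes were called higher and 2.89% lower in BLM+HBO, which is the background for each count of members. The labels do not say whether the mice of a group came from separate experiments. P-values set each group difference against the spread between these mice, estimated with information shared across genes.

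Axoneme gene levels lay mostly above the BLM level in BLM+HBO lungs, by an amount that met both limits for few single genes. Of the 62 members tested, 6 were called higher, 0 lower, against the 3.40% and 2.89% of all genes. The 6 were Rsph4a, Cfap57, Cfap161, Tekt4, Cfap46 and Cfap70, with fold changes of 1.62 to 1.82. No member passed an adjusted P of 0.05 by edgeR (8 members at an unadjusted P below 0.05, against 10.7% of all genes, all 8 being higher in BLM+HBO, against 5.11%), DESeq2 (0 adjusted, and 8 unadjusted against 11.7% of all genes) or limma-trend (0 adjusted, and 9 unadjusted against 11.2%), and the lowest adjusted P of a member was 0.423, 0.117 and 0.394 in that order. The log2 fold change (BLM+HBO over BLM) was above 0 in 60 of 62 members, compared with 51.2% of all tested genes, and its median was 0.41, with a range of -0.077 to 0.90, against a median of 0.0071 over all tested genes. Most of these genes are known from the same ciliated cells, so the 60 are not separate pieces of evidence, and in whole tissue fewer or more ciliated cells and less or more RNA per cell cannot be told apart. For 4 members (Rsph4a, Cfap57, Cfap161 and Dnaaf5) every BLM+HBO mouse lay above every BLM mouse, and for 0 members below; over all genes this held for 4.05% and 4.72%.

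**Figure D1:**
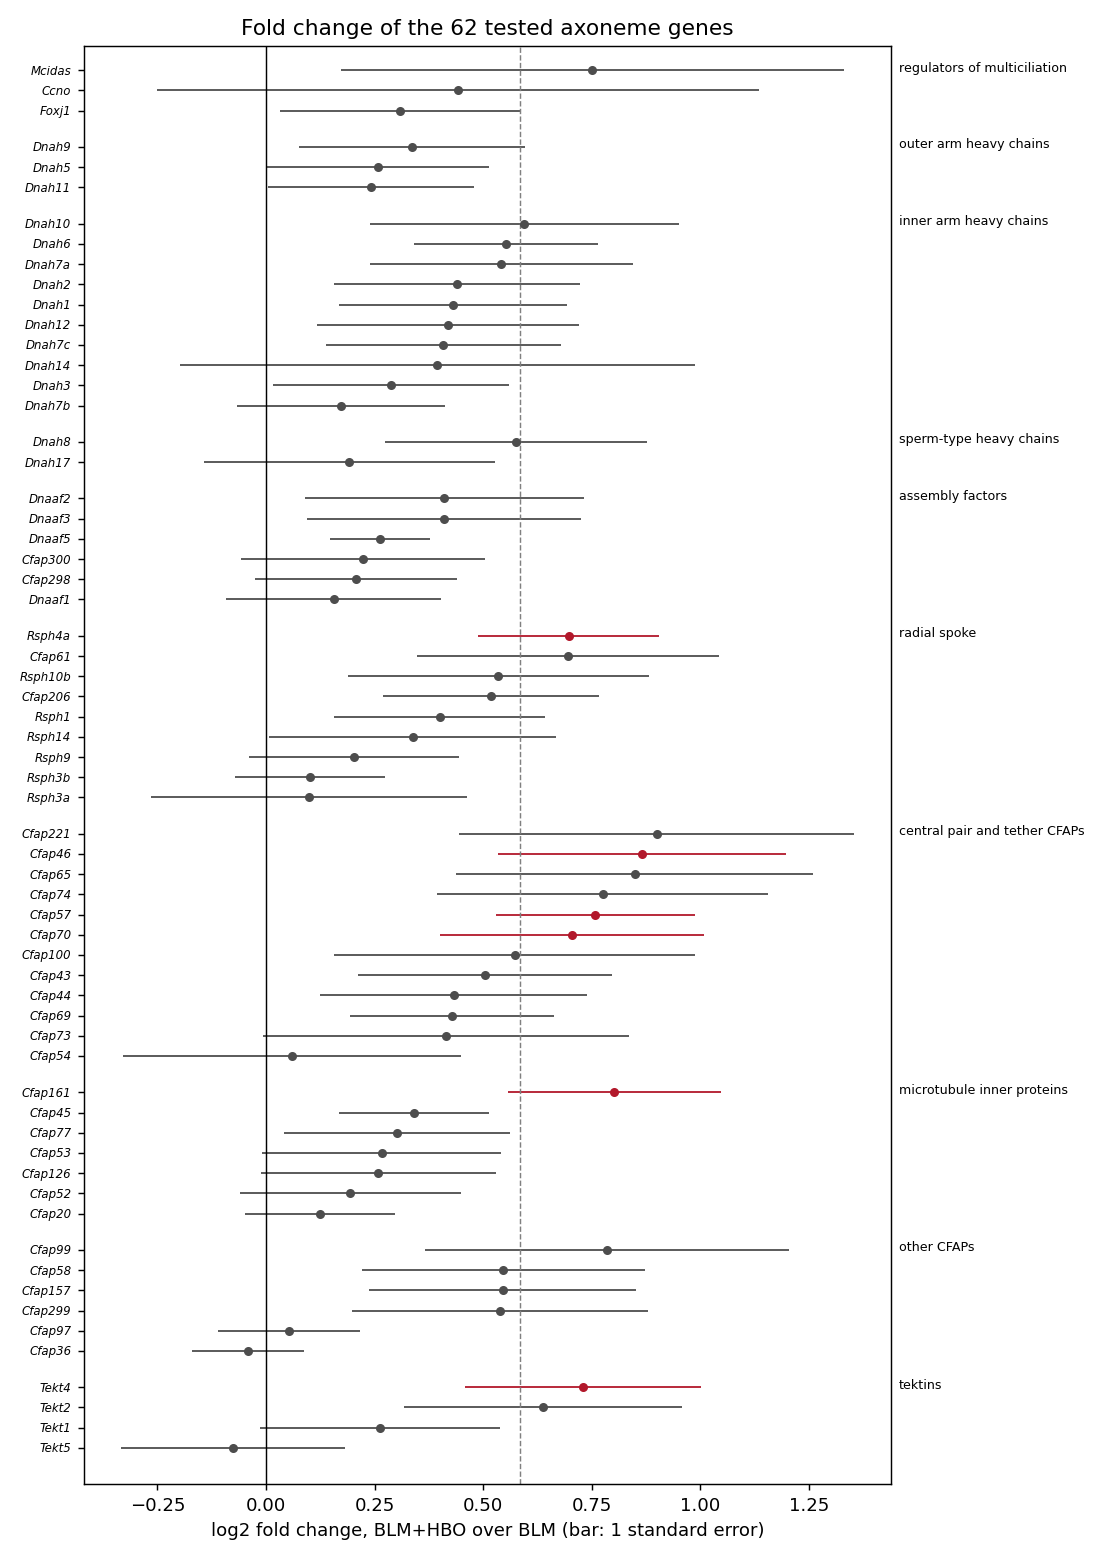
Log2 fold change (BLM+HBO over BLM, x axis) of each tested axoneme gene, grouped by role (y axis), with a bar of 1 standard error; the solid line is no change and the dashed line a fold change of 1.5. The 6 genes called higher are in red, and 60 of the 62 points lie right of 0.

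Of the 62, 59 reached the count minimum in all 7 mice and 0 entered only through the BLM+HBO mice. Not tested were Rsph6a, the testis form of the spoke head protein Rsph4a, with 2 reads in BLM 4, 2 in BLM+HBO 1 and 0 in the others, and Tekt3, a tektin known from sperm tails, with 6 to 20 reads per mouse. Per length of transcript (TPM, the count divided by length and scaled to a common total), Foxj1 was the most abundant member at a mean of 119 TPM in BLM and 147 TPM in BLM+HBO, followed by Cfap36 (54.1 and 52.4 TPM), Rsph1 (43.7 and 57.7 TPM) and Cfap126 (43.8 and 52.7 TPM). Heavy chains of dynein were low on this scale, with Dnah6 the highest of them (8.10 and 11.8 TPM) and Dnah14 the lowest (0.177 and 0.233 TPM). Summed over all members, the level was 746, 562.5, 1034 and 670.3 TPM in the BLM mice and 999.2, 833 and 1010 TPM in the BLM+HBO mice. BLM 3 stood above all 3 BLM+HBO mice in this sum, and the groups overlapped.

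**Figure D2:**
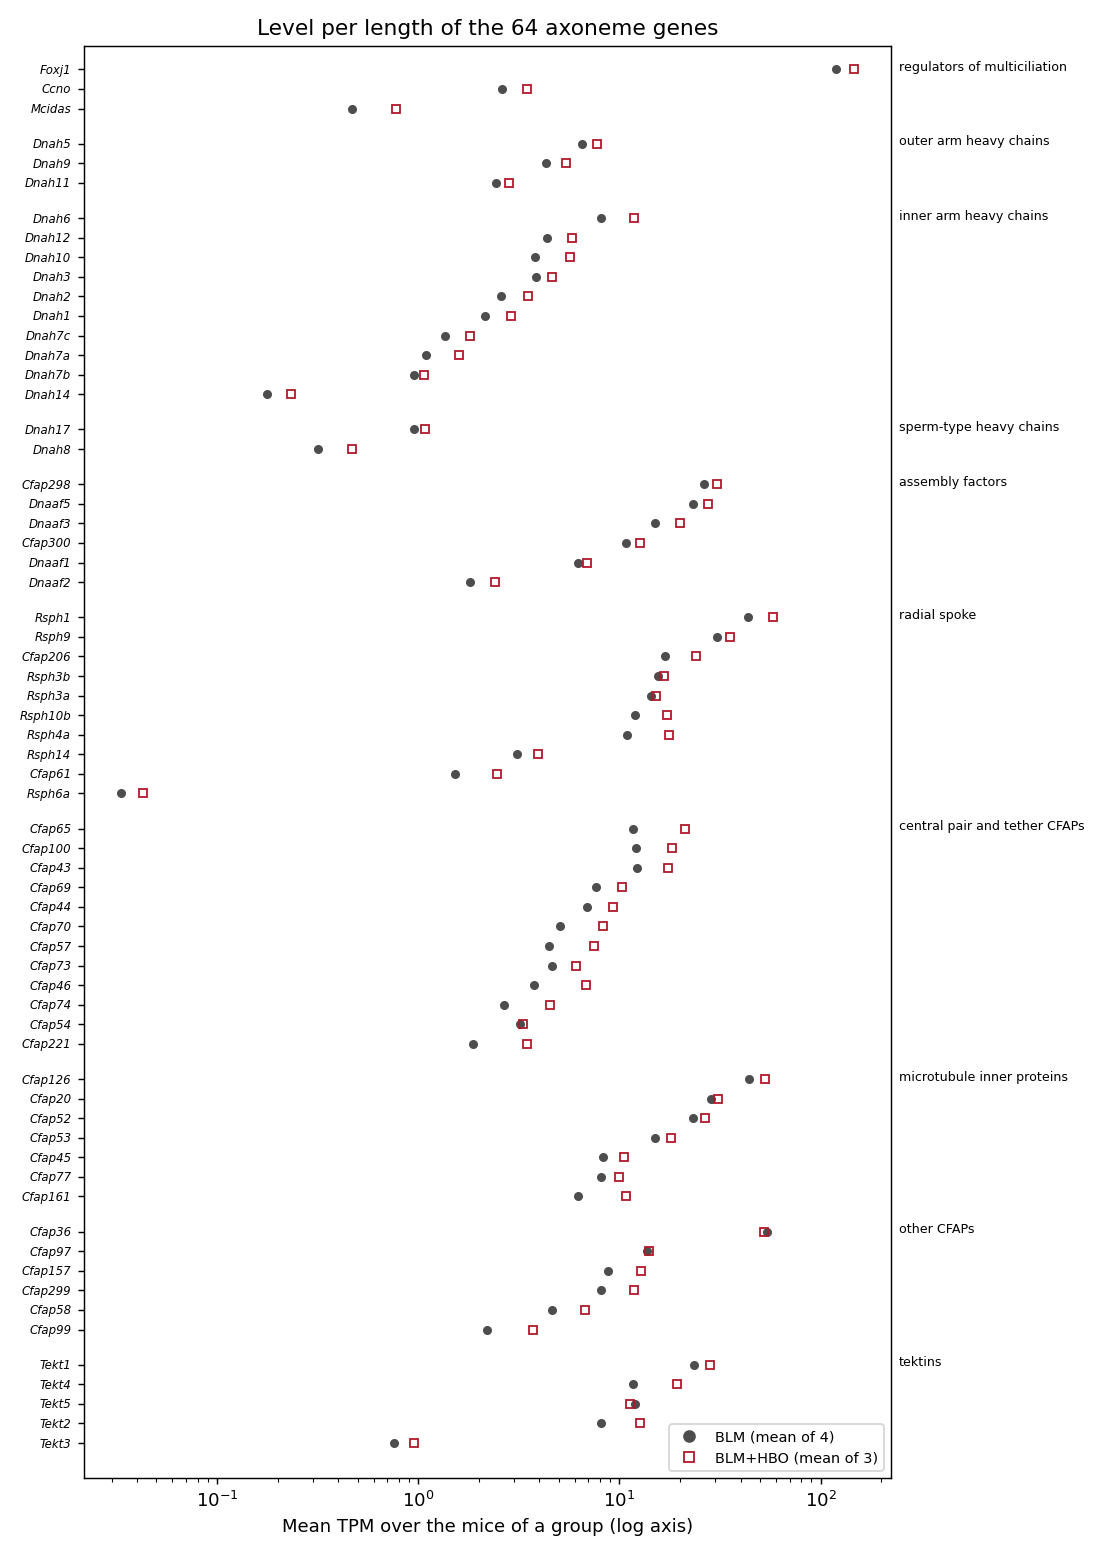
Mean TPM (x axis, log scale) of the 64 axoneme genes by role (y axis) in BLM (filled circles, mean of 4 mice) and BLM+HBO (open squares, mean of 3). Foxj1 is highest at 119 and 147 TPM and Rsph6a lowest, and most squares lie a little right of their circle.

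In what follows levels are given for BLM mice 1 to 4 and then BLM+HBO mice 1 to 3, and a value with ± inside parentheses is the log2 fold change with its SE. The regulators of multiciliation did not pass the test, 0 of 3 being called, with a median log2 fold change of 0.44. Foxj1 (ENSMUSG00000034227.7, chr11:116330704-116335399, minus strand) stood at 112, 68.1, 159 and 73.9 CPM in BLM mice 1 to 4 and at 122, 105 and 155 CPM in BLM+HBO mice 1 to 3. BLM 3 was the highest of all mice and the groups overlapped, and the log2 fold change was 0.31 ± 0.28 (SE), adjusted P = 0.714. Mcidas, the coiled-coil switch of the multiciliated fate, stood at 0.275, 0.169, 0.659 and 0.369 CPM and at 0.586, 0.287 and 0.975 CPM, from 3 to 26 reads per mouse. At that depth its log2 fold change of 0.75 ± 0.58 (SE) was not distinguishable from 0 (adjusted P = 0.660). Ccno, a cyclin needed to make the many basal bodies, ranged within BLM+HBO alone from 0.479 CPM in mouse 2 to 5.36 CPM in mouse 3, wider than the BLM range of 0.661 to 3.475 CPM (log2 fold change 0.44 ± 0.69 (SE), adjusted P = 0.851). Without BLM+HBO 3 the Ccno value turned to -0.32, so its direction rests on that mouse.

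Outer dynein arm heavy chains, the motors that set beat frequency, were not called in any of 3 cases (median log2 fold change 0.26). Dnah5 stood at 42.35, 29.1, 41.8 and 21.6 CPM in BLM and 49.03, 28.2 and 43.65 CPM in BLM+HBO, with a log2 fold change of 0.26 ± 0.26 (SE) and adjusted P = 0.746. BLM 1 and BLM 3 lay within the BLM+HBO range, and BLM+HBO 2 fell below BLM 2. Dnah9, the chain of the distal part of the cilium, stood at 28.96, 16.85, 29.98 and 14.9 CPM and 33.75, 22.9 and 29.25 CPM (0.34 ± 0.26, adjusted P = 0.660). Dnah11, the proximal counterpart, had 14.65, 9.24, 11.9 and 10.3 CPM and 14.00, 9.38 and 17.4 CPM (0.24 ± 0.24, adjusted P = 0.742). For each of these chains BLM mice 1 and 3 lay above BLM mice 2 and 4.

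Inner arm heavy chains shape the bend rather than the beat rate. All 10 had a log2 fold change above 0, with a median of 0.42 (0.17 to 0.59), and 0 were called. Dnah6, the most abundant and the one with the smallest P, stood at 39.3, 27.2, 44.9 and 30.1 CPM in BLM and 57.6, 37.4 and 60.6 CPM in BLM+HBO. Its log2 fold change of 0.55 ± 0.21 (SE) passed the unadjusted P limit but not the fold limit (fold change 1.47), and BLM+HBO 2 lay below BLM 1 and BLM 3. Dnah10, a chain of the paired-head inner arm, had the largest difference of the group (0.59 ± 0.36, adjusted P = 0.573) with 14.5, 12.7, 33.4 and 20.4 CPM in BLM and 25.2, 20.8 and 45.5 CPM in BLM+HBO. Dnah7b was the smallest at 6.77, 4.96, 8.345 and 5.11 CPM and 7.72, 6.03 and 7.54 CPM (0.17 ± 0.24, adjusted P = 0.827). Dnah7a, Dnah7b and Dnah7c are near-identical copies, and reads that map to several places were left out in counting, so their split is uncertain.

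Dnah8 and Dnah17, outer arm chains known from sperm tails, were present at low level. Dnah8 stood at 2.31, 2.25, 3.13 and 3.475 CPM in BLM and 4.58, 2.73 and 5.175 CPM in BLM+HBO (0.57 ± 0.30, adjusted P = 0.527). Dnah17 stood at 3.25, 3.61, 6.92 and 6.42 CPM and 3.89, 6.796 and 6.600 CPM (0.19 ± 0.33, adjusted P = 0.869). Neither was called, and in both the groups overlapped. Of 7 spermatid genes checked beside them, none had enough reads to be tested and 4 (Tnp1, Smcp, Odf1 and Prm1) were at 0 in all 7 mice.

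Assembly factors had the smallest median of the role groups, 0.24, and 0 of 6 were called. Dnaaf5, a scaffold protein for dynein preassembly, was the only one with separated groups, at 26.1, 23.3, 28.7 and 28.6 CPM in BLM and 31.6, 31.5 and 32.85 CPM in BLM+HBO. All BLM+HBO mice lay above the highest BLM mouse, and the difference was small (log2 fold change 0.26 ± 0.11 (SE), adjusted P = 0.467) and under the fold limit; it was picked out after its values were seen. Cfap298, the most abundant of the group per length, stood at 12.4, 13.02, 19.3 and 10.8 CPM and 14.3, 13.2 and 20.55 CPM (0.21 ± 0.23, adjusted P = 0.780), and its sign turned without BLM+HBO 3 (-0.022). Dnaaf2 had the largest difference at 1.597, 1.69, 3.075 and 1.74 CPM and 2.875, 2.202 and 3.000 CPM (0.41 ± 0.32, adjusted P = 0.664), with BLM 3 above all other mice. Dnaaf1 had the smallest at 4.901, 4.565, 7.58 and 6.21 CPM and 6.601, 5.17 and 7.65 CPM (0.16 ± 0.25, adjusted P = 0.854).

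Radial spokes carry signals from the central pair to the dynein arms, and 1 of their 9 tested genes was called. Rsph4a (ENSMUSG00000039552.14, chr10:33905111-33916021, plus strand), a spoke head protein, stood at 14.65, 10.3, 17.1 and 10.4 CPM in BLM and at 24.6, 17.85 and 21.3 CPM in BLM+HBO. Every BLM+HBO mouse lay above every BLM mouse, the closest being BLM+HBO 2 and BLM 3. Means were 13.1 ± 3.32 CPM (SD, n = 4) and 21.3 ± 3.37 CPM (SD, n = 3), the log2 fold change was 0.70 ± 0.21 (SE) and the adjusted P was 0.423. Its unadjusted P was the smallest of all members. Expressed against Foxj1 in the same mouse, Rsph4a CPM was 13.1%, 15.1%, 10.7% and 14.1% in BLM and 20.1%, 16.9% and 13.7% in BLM+HBO, and on that scale BLM+HBO 3 fell within the BLM range. Its head partner Rsph1, the most abundant spoke gene, stood at 16.2, 14.3, 30.1 and 18.7 CPM and 29.8, 21.9 and 26.9 CPM and was not called (0.40 ± 0.24, adjusted P = 0.580). BLM 3 was the highest mouse for Rsph1. Rsph3a, a stalk protein, had the smallest difference (0.10 ± 0.36, adjusted P = 0.943) at 25.7, 11.2, 10.4 and 8.95 CPM and 13.2, 20.3 and 11.7 CPM, with BLM 1 and BLM+HBO 2 standing out from their groups. Rsph3a and Rsph3b are close copies whose reads may be split uncertainly, and the sign of Rsph3a turned when BLM 3, BLM 4 or BLM+HBO 2 was left out (-0.019, -0.065 and -0.18).

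Central pair and tether genes held 3 of the 6 calls and the largest median log2 fold change of the role groups, 0.64, with all 12 above 0. Cfap57 (ENSMUSG00000028730.14, chr4:118554551-118620777, minus strand), which positions inner arm dyneins, stood at 6.28, 5.24, 6.53 and 5.58 CPM in BLM and 10.75, 6.84 and 12.4 CPM in BLM+HBO. The BLM mice lay close together, all below the lowest BLM+HBO mouse, and BLM+HBO 1 and BLM+HBO 3 lay well above BLM+HBO 2 (0.76 ± 0.23, adjusted P = 0.423). Cfap46 (ENSMUSG00000049571.18, chr7:139600951-139683817, minus strand), a central pair projection protein, stood at 8.425, 7.045, 19.3 and 11.3 CPM and 20.4, 15.3 and 27.2 CPM. BLM 3 lay above BLM+HBO 2 and just below BLM+HBO 1, so the groups overlapped although the gene was called (0.87 ± 0.33, adjusted P = 0.438). Cfap70 (ENSMUSG00000039543.16, chr14:20394193-20452226, minus strand) stood at 6.61, 4.34, 11.4 and 6.32 CPM and 14.05, 9.38 and 11.7 CPM, again with BLM 3 inside the BLM+HBO range (0.70 ± 0.30, adjusted P = 0.461).

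Of the central pair genes not called, Cfap221, a partner of Cfap46 in the same projection, had the largest difference of all members at 1.38, 0.789, 3.29 and 1.79 CPM in BLM and 3.35, 2.25 and 4.54 CPM in BLM+HBO (0.90 ± 0.45, adjusted P = 0.510). Cfap65, the most abundant per length, ranged from 15.1 to 56.4 CPM in BLM and from 42.2 to 78.7 CPM in BLM+HBO (0.85 ± 0.41, adjusted P = 0.500). For Cfap65, BLM 3 exceeded BLM+HBO 1 and BLM+HBO 2, and the other BLM mice lay below every BLM+HBO mouse. Cfap54, a further member of that projection, showed next to no difference (0.059 ± 0.39, adjusted P = 0.970) at 21.3, 10.3, 22.4 and 7.95 CPM and 23.05, 10.4 and 14.96 CPM. Genes of a single projection thus gave values from 0.059 (Cfap54) to 0.90 (Cfap221) on the log2 scale, with standard errors of 0.33 to 0.45, and the difference between them was not tested. The sign of Cfap54 turned without BLM 2, BLM 4 or BLM+HBO 1 (-0.094, -0.16 and -0.28).

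Microtubule inner proteins sit inside the tubule wall and stabilise it. Of 7, 1 was called and all had a log2 fold change above 0 (median 0.27). Cfap161 (ENSMUSG00000011154.17, chr7:83774101-83794880, minus strand) stood at 5.84, 6.48, 9.11 and 4.74 CPM in BLM and at 13.04, 9.14 and 12.04 CPM in BLM+HBO, with means of 6.54 ± 1.86 CPM (SD, n = 4) and 11.4 ± 2.025 CPM (SD, n = 3). The groups did not overlap, though BLM 3 and BLM+HBO 2 nearly met, and the log2 fold change was 0.80 ± 0.24 (SE) with adjusted P = 0.423. Cfap126, the most abundant of the group, stood at 19.55, 20.01, 42.1 and 21.6 CPM and 37.3, 26.7 and 28.8 CPM (0.26 ± 0.27, adjusted P = 0.760), BLM 3 being the highest of all mice. Cfap20, a protein of the junction inside the paired tubules that is also used by non-motile cilia, had the smallest difference (0.13 ± 0.17, adjusted P = 0.826) at 35.7, 38.3, 53.1 and 40.1 CPM and 55.4, 37.5 and 43.9 CPM, and its sign turned without BLM+HBO 1 (-0.037).

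The remaining 6 Cfap genes gave 0 calls and a median of 0.54, 5 being above 0. Cfap36 was the most abundant at 53.5, 43.00, 54.6 and 44.3 CPM and 53.4, 45.95 and 43.1 CPM, and was 1 of the 2 members below 0 (-0.042 ± 0.13, adjusted P = 0.933). Its levels varied little in either group, and the sign turned without BLM 1, BLM 3 or BLM+HBO 3 (0.0048, 0.016 and 0.019). Cfap99 had the largest difference (0.78 ± 0.42, adjusted P = 0.533) at 1.82, 1.13, 1.92 and 1.26 CPM and 1.97, 1.48 and 4.425 CPM, BLM+HBO 3 standing far above all other mice.

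Tektins form filaments along the paired tubules, and 1 of the 4 tested was called. Tekt4 (ENSMUSG00000024175.2, chr17:25454615-25476602, plus strand) stood at 6.33, 6.200, 11.9 and 6.37 CPM in BLM and 13.4, 9.76 and 15.1 CPM in BLM+HBO. BLM mice 1, 2 and 4 were nearly equal, BLM 3 stood far above them and above BLM+HBO 2, and the log2 fold change was 0.73 ± 0.27 (SE) with adjusted P = 0.436. Tekt1, the most abundant tektin, stood at 9.86, 8.45, 19.8 and 12.1 CPM and 17.6, 12.97 and 14.7 CPM (0.26 ± 0.28, adjusted P = 0.761), with BLM 3 the highest mouse. Tekt5, a tektin best known from the sperm flagellum, was the other member below 0 (-0.077 ± 0.26, adjusted P = 0.938) at 4.79, 7.16, 9.17 and 7.32 CPM and 6.76, 5.265 and 8.175 CPM, and turned positive without BLM 3 (0.070) or BLM+HBO 2 (0.071). For the 6 called genes the adjusted P was 0.423 to 0.461, and over all alternatives of processing and omitted mice it ranged from 0.0588 to 0.802.

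**Figure D3:**
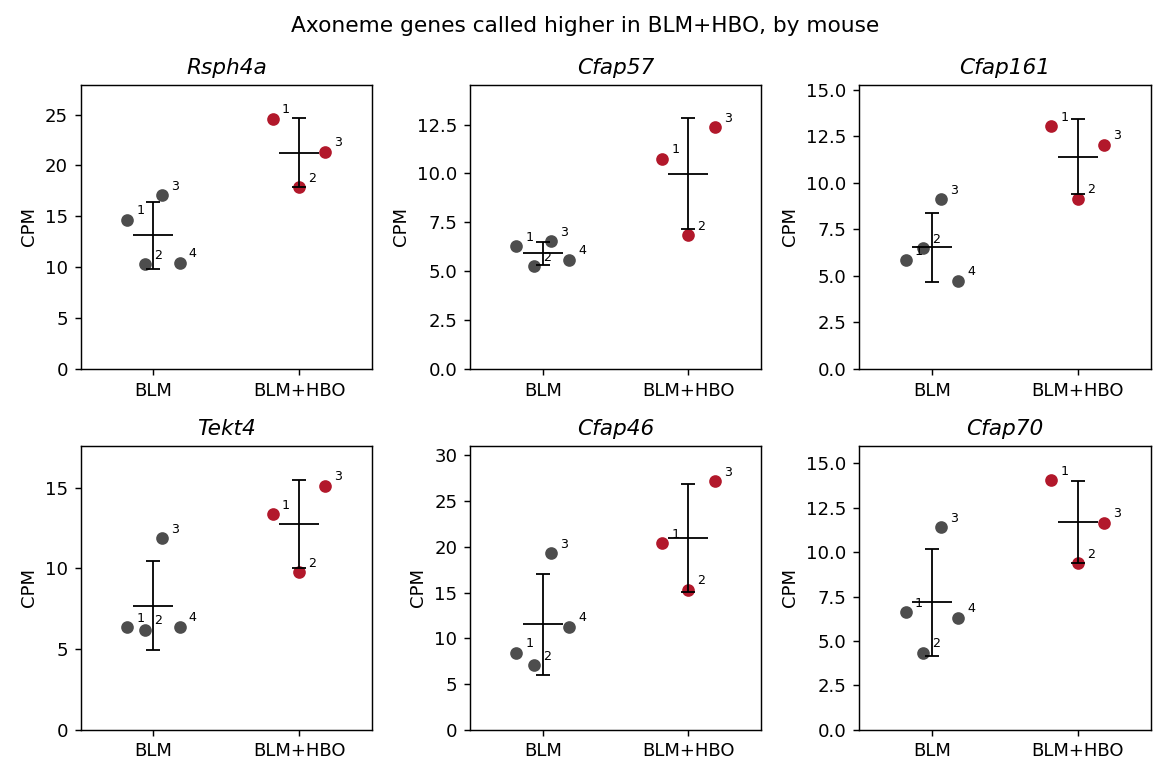
CPM (y axis, from 0) of the 6 axoneme genes called higher in BLM+HBO, each in its own panel, with a point per mouse labelled by its number and the mean ± SD of each group. Rsph4a, Cfap57 and Cfap161 do not overlap between groups, and in the other panels BLM 3 lies within the BLM+HBO range.

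The members moved together from mouse to mouse, and 1 mouse of each group stood apart from the rest. BLM 3 had the highest level of its group for 52 of the 62 tested members, and BLM+HBO 2 had the lowest of its group for 52 of 62. BLM 2 was the lowest of all 7 mice for 37 members, while the highest of all 7 was BLM+HBO 3 for 22, BLM+HBO 1 for 20, BLM 3 for 18 and BLM 1 for 2. The median deviation of a member from its mean over the 7 mice (log2 CPM) was -0.32, -0.51, 0.42 and -0.32 in BLM mice 1 to 4 and 0.41, -0.035 and 0.41 in BLM+HBO mice 1 to 3. BLM 3 was thus at the level of BLM+HBO 1 and BLM+HBO 3. Subtracting this median in each mouse lowered the median within-group SD of the members from 0.44 to 0.28 (log2 CPM), and lowered it for 56 of 62. The median subtracted came from these same members, so part of that drop follows from the calculation itself. For the other tested genes the SD was 0.25 without any subtraction.

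**Figure D4:**
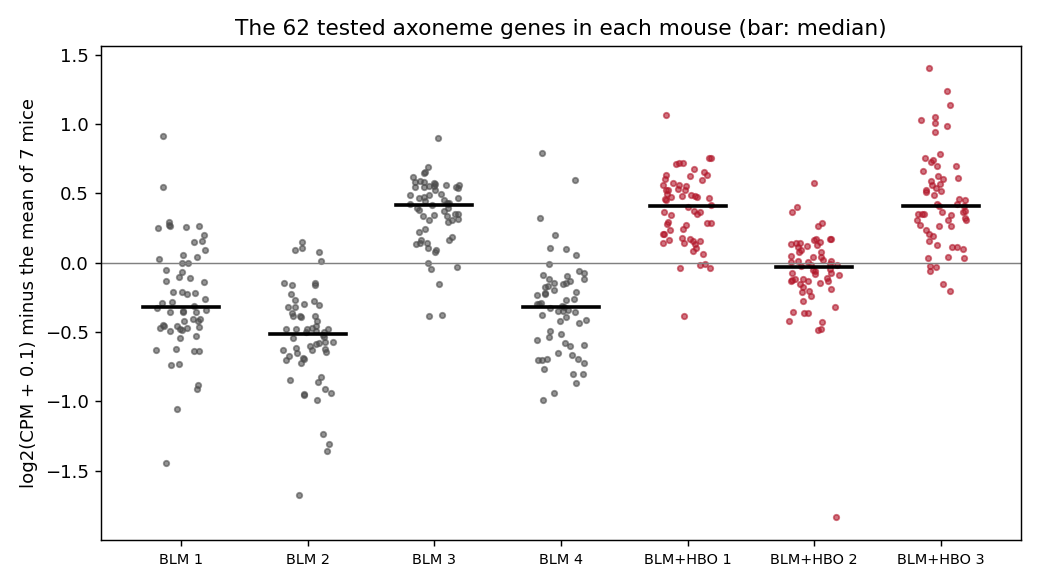
Deviation of each of the 62 tested axoneme genes from its mean over the 7 mice (y axis, log2 of CPM + 0.1) in each mouse (x axis), with a bar at the median. BLM mice 1, 2 and 4 lie mostly below 0, BLM 3 and BLM+HBO mice 1 and 3 mostly above it, and BLM+HBO 2 around 0.

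The count of calls depended on those mice. Without BLM 3, 30 of 61 members were called higher, against 4.56% of all genes in the same fit, and the median log2 fold change was 0.63. Without BLM+HBO 2, 16 of 63 were called (5.29% of all genes) with a median of 0.59. Leaving out any other mouse gave fewer calls. There were 4 when BLM 1 was dropped (2.34% of all genes), 3 for BLM 2 (2.56%), 4 for BLM 4 (3.97%), 3 for BLM+HBO 1 (1.93%) and 2 for BLM+HBO 3 (2.87%). The median stayed above 0 in every case, between 0.30 and 0.63, and Cfap161 was called in each of these fits. With all mice, DESeq2 added Cfap74 to the 6 (3.68% of all genes called) and limma-trend added Cfap65 (3.28%). Rsph4a was not called without BLM+HBO 1, where its log2 fold change of 0.58 ± 0.23 (SE) fell just short of the fold limit, nor Cfap57 without BLM+HBO 3, likewise on the fold limit (0.57 ± 0.25). Tekt4 and Cfap70 kept the call only when BLM 3 or BLM+HBO 2 was dropped, and Cfap46 also when BLM+HBO 1 was dropped. Neither BLM 3 nor BLM+HBO 2 is marked in the labels as different from its group.

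**Figure D5:**
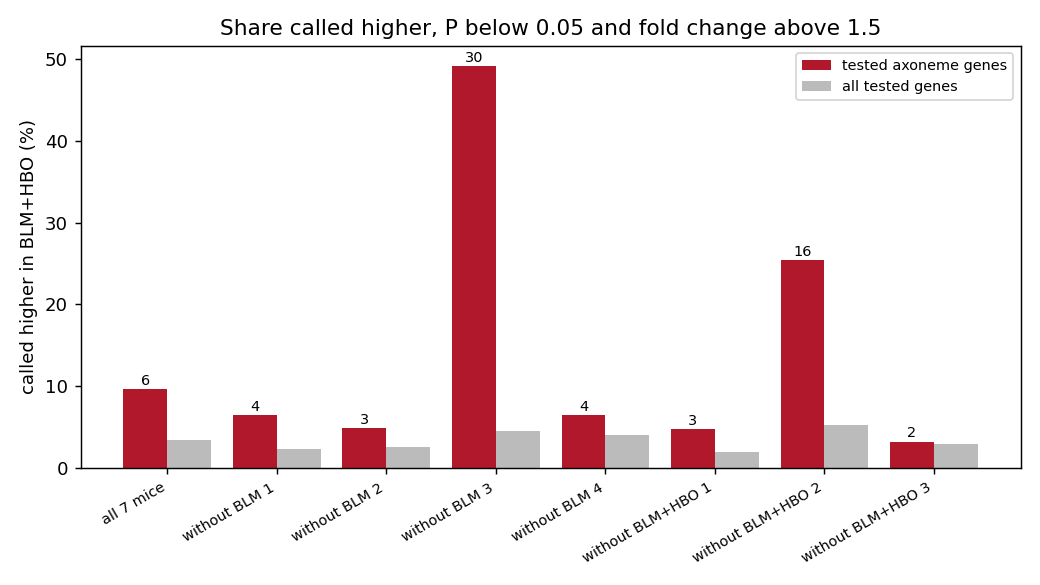
Share of tested axoneme genes (red) and of all tested genes (grey) called higher in BLM+HBO (y axis, percent, from 0) with all 7 mice and with each mouse left out (x axis); the number of axoneme genes called stands above each red bar. The count is 6 with all mice, 30 without BLM 3 and 16 without BLM+HBO 2.

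Transcript GC content was compared because it split the members within some mice. The median deviation of the 30 members under 50% GC and of the 32 others was -0.084 and -0.45 in BLM 1 and 0.54 and 0.26 in BLM+HBO 1, while the same split over all genes gave 0.067 and -0.057 in BLM 1 and 0.094 and -0.066 in BLM+HBO 1. The comparison of the groups was nearly the same in both sets of members, with a median log2 fold change of 0.42 under 50% GC and 0.41 above. With a GC correction in the fit, an alternative chosen after the data were seen, the same 6 members were called (3.27% of all genes), 60 were above 0 and the median was 0.40.

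Cilium genes that the naming rule left out gave counts like those of the members. Of 64 listed (inner arm intermediate chains, docking and regulatory complex proteins, transcription factors and others), 61 were found and 59 tested. The 3 not matched by the listed symbol, older symbols not having been searched, were Dnai1 and Dnai2, the outer arm intermediate chains, and Pierce1. Of the 59, 5 were called higher and 0 lower, against 3.40% and 2.89% of all tested genes. Above 0 were 57, against 51.2% of all tested genes (median log2 fold change 0.39). Called with the smallest P were Ccdc39, a ruler protein that spaces the dynein arms (log2 fold change 0.68 ± 0.24, SE), Wdr63, an inner arm intermediate chain (0.63 ± 0.25) and Spag6l, a central pair protein (0.63 ± 0.26), with adjusted P from 0.423 to 0.455. Ccdc39 stood at 13.55, 10.03, 19.8 and 11.7 CPM in BLM and 22.8, 17.0 and 26.6 CPM in BLM+HBO, BLM 3 again lying above BLM+HBO 2. The most abundant per length was Tppp3, a tubulin-binding protein and ciliated cell marker, at 120, 128, 218 and 146 CPM in BLM and 268, 141 and 257 CPM in BLM+HBO (0.54 ± 0.26, adjusted P = 0.497). Leaving out mice changed the count of 5 as it did for the members, to 34 when BLM 3 was dropped (4.56% of all genes) and 16 when BLM+HBO 2 was dropped (5.29%). It became 3 without BLM 1 (2.34%), 1 without BLM 4 (3.97%) or BLM+HBO 1 (1.93%), and 0 without BLM 2 (2.56%) or BLM+HBO 3 (2.87%).

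Genes of intraflagellar transport and the primary cilium, which most cell types use, had a median close to that of all genes. Of 40 tested, 0 were called by edgeR. At an unadjusted P below 0.05 there were 2, Ift20 at 0.23 and Kif3b at -0.32 on the log2 scale, against 10.7% of all genes. Above 0 were 29 of the 40, against 51.2% of all tested genes, and the median log2 fold change was 0.069 (all tested genes 0.0071). This list shares its mice with the members, and the difference between the lists was not tested.

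Cell type markers differed between the same mice. For each list below, the background over all tested genes is 3.40% called higher, 2.89% called lower and 51.2% above 0. The 8 markers of ciliated airway cells, all of them already counted among the cilium genes outside the rule, were all above 0 with 0 called (median 0.40), and their summed level was 231, 239, 446 and 265 CPM in BLM and 494, 292 and 429 CPM in BLM+HBO, BLM 3 again lying with BLM+HBO 1 and BLM+HBO 3. Of 5 club cell genes, secretory cells of the same airways, 3 were called higher (Cyp2f2, Aldh1a1 and Scgb1a1) and 4 were above 0 (median log2 fold change 0.67). Their summed level was 6058 to 12540 CPM in BLM and 9996 to 20270 CPM in BLM+HBO, most of it Scgb1a1 (4844 to 10540 and 8262 to 17060 CPM). Scgb3a1 of the same list lay the other way without being called, at a log2 fold change of -1.13 ± 0.51 (SE), adjusted P = 0.471, with 123.4 to 363.3 CPM in BLM and 50.5 to 218 CPM in BLM+HBO. Of 4 basal cell genes, 3 were called lower (Krt14, Krt5 and Trp63), with sums of 7.06 to 11.5 CPM in BLM and 2.85 to 6.32 CPM in BLM+HBO. Of the other airway lists, 1 of 4 goblet cell genes (Bpifb1) and 1 of 3 neuroendocrine genes (Calca) were called lower. In the goblet list 3 genes were below 0 and 1 above (median log2 fold change -0.73). In the neuroendocrine list 2 were below 0 and 1 above (median -0.71).

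Outside the airway, 3 of 4 fibroblast genes were called lower (Col1a1, Col1a2 and Dcn), with sums of 3895 to 6858 CPM in BLM and 1110 to 4270 CPM in BLM+HBO. All 5 heart muscle genes were called higher, with sums of 54.2, 113, 82.0 and 142 CPM in BLM and 512, 434 and 124.5 CPM in BLM+HBO. BLM+HBO 3, among the highest mice for the axoneme genes, lay within the BLM range for heart muscle, and BLM+HBO 2, the lowest of its group for most axoneme genes, was high. Club cell sums were 15170, 9996 and 20270 CPM in BLM+HBO mice 1 to 3, with BLM+HBO 2 the lowest, as for most axoneme genes. Within BLM, mouse 2 had the highest club cell sum (12540 CPM) but the lowest level for most axoneme genes. Of the alveolar lists, 1 of 5 type 2 genes (Sftpa1) was called higher and all 5 were above 0. Their median log2 fold change was 0.45, against 0.41 for the axoneme genes. Type 2 sums were 8087, 14580, 14410 and 13460 CPM in BLM and 22250, 10290 and 25580 CPM in BLM+HBO, with BLM+HBO 2 the lowest of its group. Of 4 type 1 genes, 0 were called and 3 were above 0 (median 0.18). Of a list drawn up for brain ependyma and choroid plexus, Otx2 and Ttr, genes of the choroid plexus, were at 0 in all BLM mice and at no more than 0.16 CPM in BLM+HBO mice. The other two, which are not particular to brain, were tested and not called, Rarres2 standing at 58.6 to 83.6 CPM in BLM and 60.6 to 75.6 CPM in BLM+HBO and Enkur being 1 of the cilium genes counted above. Not all calls in these cell type lists, which are those of edgeR, were shared by the other tools. By limma-trend the unadjusted P was 0.091 for Scgb1a1 and 0.075 for Sftpa1, and by DESeq2 it was 0.064 for Col1a2. How far the makeup of the tissue piece taken from each mouse had a part in the axoneme values was not tested.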

How the data were processed

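The authors deposited raw read counts per gene with gene coordinates and merged exon lengths, 1 column per mouse. NEBNext Ultra libraries were sequenced paired-end, trimmed and aligned to GRCm38 with HISAT2 (2.2.0 in the submitters' processing notes). Reads were counted with featureCounts (2.2.0 there, a different version in the methods of the study). Default settings were used, that is without strand and without reads mapping to several places. Their annotation release was not given in the sources used here, and symbols came from GENCODE vM21 by gene ID, with 63 of 64 members having identical coordinates. Default counting could lower near-identical copies (Dnah7a, Dnah7b and Dnah7c; Rsph3a and Rsph3b) and mix overlapping genes.

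BLM and BLM+HBO mice were compared with edgeR 4.0.16 (R 4.3.3): filterByExpr with a minimum count of 10, TMM factors, glmQLFit and glmQLFTest, Benjamini-Hochberg adjustment over 17465 genes. The limits for a call, an unadjusted P below 0.05 together with a fold change over 1.5, follow the methods of the study. CPM used effective library sizes, and TPM the deposited lengths. Totals of 18157161 to 26365969 counts put the minimum at 0.542 CPM. DESeq2 1.42.0 and limma 3.58.1, other scalings, filters, thresholds, a replicate block, a GC correction and the omission of each mouse were alternatives. The fits were also run on simulated counts drawn independently for each gene. That setting does not cover genes that move together from mouse to mouse, as the members did. The members, role groups and gene lists were chosen with earlier results of these data known. Named with values in each mouse were the 3 regulators and, per role group, the most abundant member, those with the largest and smallest fold change and up to 3 called members. From the other lists, up to 3 called genes by smallest P and the most abundant one could be named.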

Additional observations from a re-analysis of the deposited data

Results flagged for a closer look

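Of 45 sets of BLM values examined for a mouse far from the others, 6 had a gap to the nearest mouse, as a share of the whole range, above the 95% critical value for 4 samples, and about 1 in 20 would by chance. For 3 axoneme genes the mouse was BLM 3. The gap share was 0.958 for Tekt4 (3.58 on the log2 CPM scale against 2.65 to 2.69 in the other BLM mice), 0.873 for Dnaaf2 (1.67 against 0.763 to 0.878) and 0.871 for Cfap126 (5.40 against 4.30 to 4.44). For the summed basal cell genes it was 0.860, with BLM 4 at 2.82 against 3.43 to 3.53 (log2 CPM). For the summed alveolar type 2 genes it was 0.864, with BLM 1 at 12.98 against 13.72 to 13.83 (log2 CPM). For the total count it was 0.971, with BLM 4 at 19002242 against 18436336 to 18452895. The BLM+HBO group, with 3 mice, was too small for this check.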

How the results depend on the processing

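With 3 mice against 4, no axoneme gene passed an adjusted P of 0.05 under any setting run (edgeR, DESeq2 or limma; 8 to 9 at an unadjusted P below 0.05 by tool), and 0 were called lower under any. The same 6 genes were called with RLE scaling (3.36% of all genes), upper-quartile scaling (3.69%), robust estimation (3.34%) and a CPM minimum (3.30%). The count was 12 without a filter on low counts (3.27%), 3 at a P limit of 0.01 (0.916%) and 0 at a fold change above 2 (1.59%), and with single mice left out it ran from 2 to 30. For the cilium genes outside the naming rule, the count of 5 became 8 without the filter, 0 at a P limit of 0.01 (0.916% of all genes), 0 at a fold change above 2 (1.59%), and 0 to 34 with single mice left out. The cause of these shifts was not tested.

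Whether replicate numbers pair the mice cannot be decided from so few same-numbered pairs. Same-numbered mice had correlations of their deviations of -0.0080, -0.066 and 0.16, and mice of different number had -0.18 to 0.17. Not every mouse correlated best with its own number. With the replicate block, 12 members were called higher (3.85% of all genes) and Cfap54 turned to -0.15.

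Of the log2 fold changes of named genes under the settings, 443 kept their direction and their side of the threshold, 20 gained a call, 16 lost one and 15 changed sign, all but that of Cfap54 under the block when a single mouse was left out. Over the omitted mice, Ccno ran from -0.32 to 0.94, Cfap298 from -0.022 to 0.41, Rsph3a from -0.18 to 0.56 (also -0.019 and -0.065), Cfap54 from -0.28 to 0.29 (also -0.094 and -0.16), Cfap20 from -0.037 to 0.26, Cfap36 from -0.13 to 0.019 (also 0.0048 and 0.016) and Tekt5 from -0.25 to 0.071 (also 0.070).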
